A study of Homo sapiens with 2 samples.

Results

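CDKN1A-high cells were 152 of 3836 kept cells of the established human lung adenocarcinoma line A549. They were 90 of 1930 kept cells in the squashed library (4.66%, 95% exact binomial interval 3.77 to 5.70) and 62 of 1906 in the control library (3.25%, 2.5 to 4.15). A cell was counted when at least 3 of its unique molecular identifiers (UMIs, each standing for 1 captured RNA molecule) came from CDKN1A, and at least 3 of every 10000 did. The cells set against them, called zero cells here, had no CDKN1A UMI among at least 10000 UMIs of the same library, and numbered 463 in the squashed library and 762 in the control library. The squashed library came from cells confined under micropillars of the silicone PDMS and the control library from cells grown in 2D. Cells of both libraries had 48 h to recover and were then selected, alive, by sorting for those without their chromosome reporter (ChReporter), so every cell compared here had gone through that sort. The chromosome that carries the reporter and the time under confinement are not given in the sources used here. There was 1 library per condition and cells of a library are not replicates, so no test was made, and each interval covers counting error only.

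CDKN1A encodes p21, an inhibitor of cyclin-dependent kinases, the enzymes that drive a cell through its division cycle. Its best known activator is the transcription factor p53, which rises after DNA damage and other stress. p53 also activates its own inhibitor MDM2, a ubiquitin ligase, together with genes of repair, metabolism and cell death. A cell held by p21 lowers the genes of mitosis through the DREAM complex, a repressor that binds the motif known as the cell cycle homology region.

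The label names CDKN1A, MDM2 and GDF15 as the markers of these cells. CDKN1A chose the cells, so its values are a description. It lies on chromosome 6 from 36676460 to 36687337 (GRCh38, plus strand). CDKN1A-high cells held 999 CDKN1A UMIs in the squashed library and 724 in the control library, with a median of 9 (3 to 45) and 9.5 (3 to 54) per cell. They carried 44.8% of all CDKN1A UMIs of kept squashed cells and 42.2% of those of kept control cells. The cells just inside the limit, with 3 to under 3.5 CDKN1A UMIs per 10000, numbered 23 in the squashed and 13 in the control library and had 165 and 232 MDM2 CPM (a gene's UMIs over all UMIs of the group, scaled to 1000000). The 19 squashed and 25 control cells just outside it, with 2.5 to under 3 per 10000, had 155 and 180 MDM2 CPM, and their GDF15 was at 38.04 CPM inside against 58.5 CPM outside (squashed) and 70.4 against 60.4 CPM (control). Other genes differed across the limit, with control CCNB1 at 120 CPM inside and 14.2 CPM outside and control NEAT1 at 3898 CPM inside and 6260 CPM outside. The CCNB1 values rest on 41 UMIs inside and 8 outside. The control cell with the most CCNB1 UMIs held 25 of the 41. It had 12 CDKN1A UMIs among 36993 and so lay just inside the limit.

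The libraries held 26829300 UMIs in 3132 barcodes (squashed) and 30565366 UMIs in 2574 barcodes (control). They shared 4 barcodes, of which 1 was a CDKN1A-high squashed cell. Doublet calls took 1 CDKN1A-high cell in each library. CDKN1A-high cells were deeper than zero cells, with a median of 19194 against 14295 UMIs in the squashed library and 22277.5 against 15027 in the control library. They also had more mitochondrial UMIs (median 10.3% against 7.49%, and 12.6% against 5.50%), fewer ribosomal protein UMIs (26.7% against 32.6%, and 24.9% against 29.3%), and far more UMIs of the nuclear RNAs NEAT1 and MALAT1 (2.21% against 0.318%, and 3.19% against 0.232%). Results below that turn on this difference are given against zero cells rich in these RNAs as well. The A549 markers KRT8, KRT18, ALDH1A1 and AKR1B10 were measured in CDKN1A-high cells of both libraries, whereas NKX2-1, NAPSA, EPCAM, SFTPB, SFTPA1 and SFTA3 of the same list were at 0 there. The rest of that list had few UMIs in squashed and control CDKN1A-high cells, with KRT19 at 9 and 8, ABCA3 at 8 and 7 and SFTPC at 1 and 0. Markers of other cell types summed to low values. The sums were higher in CDKN1A-high than in zero cells, except that the endothelial list of the control library hardly differed (log2 ratio 0.10, -0.29 to 0.46). The 10 fibroblast markers summed to 39.6 CPM in CDKN1A-high and 21.7 CPM in zero cells of the squashed library and to 72.1 and 19.5 CPM in the control library, the 11 immune markers to 32.5 and 19.3 CPM and to 20.1 and 11.9 CPM, and the 8 endothelial markers to 17.6 and 8.98 CPM and to 47.1 and 44.3 CPM. COL1A2, POSTN, PTPRC, CD3D, LYZ, PECAM1 and CDH5 were at 0 in CDKN1A-high cells of both libraries. Other listed markers were present there. In squashed and control CDKN1A-high cells ACTA2 had 38 and 42 UMIs, COL1A1 19 and 10, FBLN1 15 and 12, CD68 56 and 24, and EGFL7 29 and 64. DCN had 0 and 38. ACTA2 was at a log2 ratio of 2.06 and 3.55 over zero cells.

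Across the genome, genes were counted as measured at 20 CPM or more in either group of cells, and as higher or lower at a difference of at least 1.5-fold. Of 4373 genes measured in both libraries, 802 were higher in CDKN1A-high cells of both (18.3%) and 435 were lower in both (9.95%). In the squashed library alone 22.9% of 4575 genes were higher and 11.8% lower, and in the control library 32.5% of 5272 were higher and 16.9% lower. All measured genes together had a median log2 ratio of 0.08 and 0.17. TMM scaling in place of total UMIs moved every ratio by -0.26 in the squashed and -0.36 in the control library and gave 410 genes higher and 916 lower in both, so the split of the genome into higher and lower rests on the scaling; the genes described below are to be read against that shift.

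The p53 target genes lay high as a group. A list of 45 such genes, without CDKN1A, had 28 measured in both libraries. Of these 23 were higher in both libraries and 0 lower in both, where 18.3% of all genes were higher. Some of them, TP53INP1, BTG2, ZMAT3, FAS, PHLDA3 and GDF15 among them, reached 20 CPM through the CDKN1A-high cells alone and so had to differ. With the minimum asked of the zero cells of both libraries, a filter chosen after the data had been seen, 13 of 18 targets were higher and 0 lower, against 10% of 3672 genes higher, and the medians were 0.98 (0.66 to 1.13) and 1.08 (0.86 to 1.43). The median log2 ratio of the list was 1.06 (95% interval over genes 0.89 to 1.51, 28 genes) in the squashed library and 1.49 (1.07 to 1.85, 31 genes) in the control library. Listed genes that were not measured in both libraries, GADD45A, SESN1 and SESN2 among them, enter no count.

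**Figure D1:**
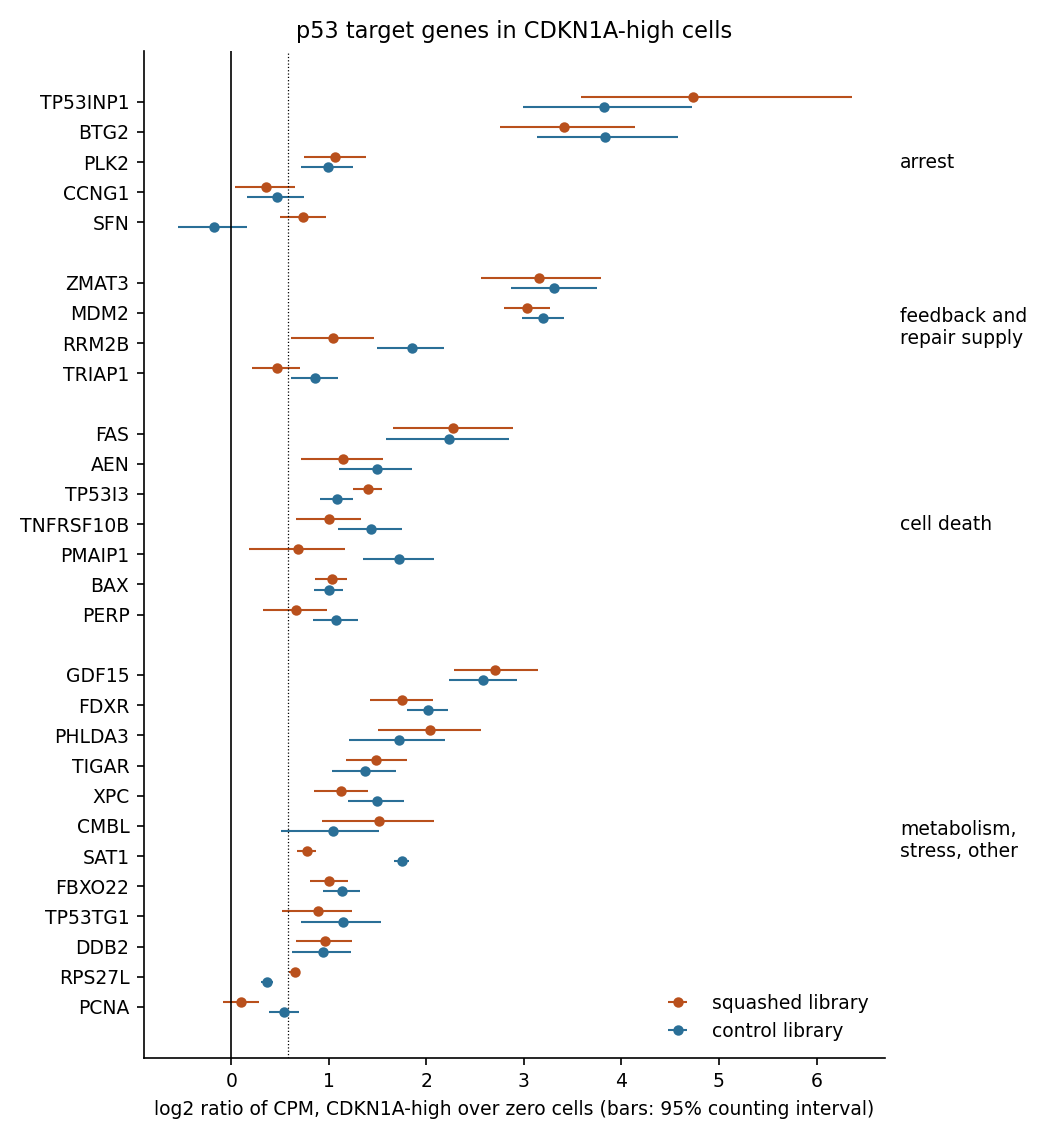
The log2 ratio of CPM in CDKN1A-high over zero cells is shown for the 28 p53 targets measured in both libraries, grouped by role, with the squashed library above the control library in each row. Bars are 95% counting intervals, the solid line marks no difference and the dotted line 1.5-fold; in both libraries MDM2 lies at 3.03 and 3.20 and GDF15 at 2.71 and 2.59.

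MDM2 lies on chromosome 12 from 68808177 to 68845544 (plus strand). MDM2 had 243 CPM in CDKN1A-high and 29.7 CPM in zero cells of the squashed library, and 257 CPM in CDKN1A-high and 28.1 CPM in zero cells of the control library. This is a log2 ratio of 3.03 (2.80 to 3.27) and 3.20 (2.98 to 3.41). With each cell thinned to 10000 UMIs, an MDM2 UMI was found in 59 of 69 CDKN1A-high cells (85.5%) against 76 of 463 zero cells (16.4%) in the squashed library, and in 48 of 56 (85.7%) against 157 of 762 (20.6%) in the control library. Without thinning the shares were 76.7% against 29.8% and 87.1% against 29.7%. The libraries hold 1 cell line, so no cell type that should lack MDM2 gives the share that free RNA alone would. Thinning left out 21 squashed and 6 control CDKN1A-high cells that had under 10000 UMIs. MDM2 stood at 108 CPM (60.5 to 178) in those squashed cells and at 310 CPM (174 to 512) in those control cells, above the zero cells in either case.

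GDF15, a secreted stress hormone, lies on chromosome 19 from 18374731 to 18389176 (plus strand). It had 66.6 CPM in CDKN1A-high and 10.2 CPM in zero cells of the squashed library, and 81.8 and 13.6 CPM in those of the control library, a log2 ratio of 2.71 (2.29 to 3.14) and 2.59 (2.24 to 2.93). Fewer cells showed it than MDM2. At 10000 UMIs it was found in 36.2% of CDKN1A-high and 7.13% of zero cells of the squashed library, and in 51.8% and 8.66% of those of the control library. The 21 squashed and 6 control CDKN1A-high cells under 10000 UMIs held no GDF15 UMI, which allows up to 26.6 and 76.3 CPM there.

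Of the arrest genes of the p53 list, 3 of the 5 measured in both libraries were higher in both, where 18.3% of all genes were. With 20 CPM asked of the zero cells of both libraries, 1 of 3 was higher, against 10% of all genes. TP53INP1, a stress protein that promotes arrest and autophagy, had 22.6 CPM in CDKN1A-high and 0.793 CPM in zero cells of the squashed library and 22.2 and 1.55 CPM in those of the control library (log2 ratio 4.73, 3.59 to 6.36, and 3.83, 2.99 to 4.72). BTG2, an antiproliferative gene that shortens messenger RNA tails, had 36.9 and 3.44 CPM and 31.2 and 2.17 CPM in the same order (3.41 and 3.84). The kinase PLK2 was at 1.07 and 0.99. CCNG1, a cyclin that p53 induces, was at 0.35 and 0.46, under 1.5-fold. SFN, the 14-3-3 sigma protein, was at 0.74 in the squashed and -0.18 in the control library.

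The feedback genes hold p53 or supply repair. ZMAT3, an RNA-binding protein, had 40.2 CPM in CDKN1A-high and 4.49 CPM in zero cells of the squashed library and 65.2 and 6.59 CPM in those of the control library (3.15 and 3.31). RRM2B, the subunit of ribonucleotide reductase that p53 controls, was at 1.04 and 1.85. TRIAP1, which limits cell death, was at 0.47 and 0.86. With MDM2, 3 of the 4 measured genes of this group were higher in both libraries, where 18.3% of all genes were. With 20 CPM asked of the zero cells of both libraries, 1 of 2 was higher, against 10% of all genes.

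All 7 measured death genes were higher in both libraries, where 18.3% of all genes were. FAS and AEN among them were under 20 CPM in zero cells of both libraries and could not come out lower. With 20 CPM asked of the zero cells of both libraries, 4 of 4 were higher, against 10% of all genes. The death receptor FAS had 28.1 CPM in CDKN1A-high and 5.81 CPM in zero cells of the squashed library and 23.6 and 5.04 CPM in those of the control library (2.27, 1.66 to 2.89, and 2.24, 1.58 to 2.85). The other death receptor measured, TNFRSF10B, was at 1.01 and 1.43. BAX, which opens the mitochondrial outer membrane, was at 1.03 and 1.00, and the nuclease AEN at 1.14 and 1.49. TP53I3, an oxidoreductase, was at 1.40 and 1.08. The BCL2 family and its partners, listed apart from these, had 5 of 11 genes higher and 1 lower in both. Over all genes 18.3% were higher and 9.95% lower, and BIRC3 reached 20 CPM through the CDKN1A-high cells alone. BIRC3 was at 1.54 and 1.36 and XIAP at 0.92 and 1.22, both inhibitors of cell death, and the lower gene was CYCS, cytochrome c, at -1.09 and -1.49.

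Of the 12 remaining targets measured in both libraries 10 were higher in both, where 18.3% of all genes were. With 20 CPM asked of the zero cells of both libraries, 7 of 9 were higher, against 10% of all genes. FDXR, a mitochondrial reductase, had 81.5 CPM in CDKN1A-high and 24.3 CPM in zero cells of the squashed library and 185 and 45.9 CPM in those of the control library (1.75 and 2.01). PHLDA3, an inhibitor of the kinase AKT, was at 2.04 and 1.72, and TIGAR, which lowers glycolysis, at 1.49 and 1.37. The damage sensors XPC and DDB2 of nucleotide excision repair were at 1.13 and 1.49 and at 0.96 and 0.94. The exceptions were RPS27L at 0.65 and 0.37 and PCNA, the replication clamp, at 0.10 and 0.54.

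The spread within the group was wide, as the plot of UMIs per cell shows. At 10000 UMIs a CDKN1A-high cell had a median of 2 MDM2 UMIs in either library, from 0 to 17 in the squashed and 0 to 14 in the control library, whereas the median zero cell had 0. The arrest and feedback lists summed to a median of 7 (0 to 30) UMIs in CDKN1A-high against 2 (0 to 24) in zero cells of the squashed library, and to 8 (1 to 20) against 3 (0 to 14) in those of the control library. The ranges overlapped in both libraries.

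**Figure D2:**
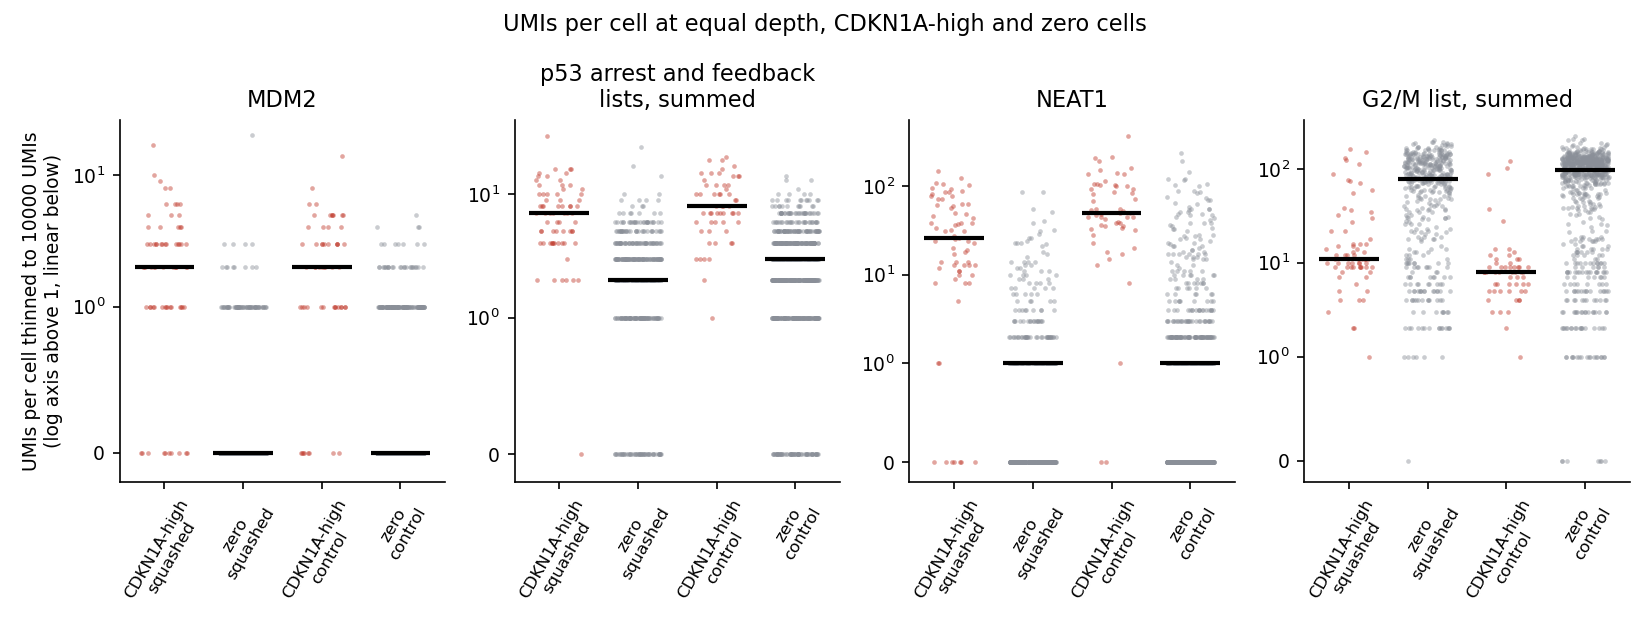
Each point is a cell thinned to 10000 UMIs, with UMIs of MDM2, of the p53 arrest and feedback lists, of NEAT1 and of the G2/M list on an axis that is logarithmic above 1; bars are medians. CDKN1A-high cells (69 squashed, 56 control) lie above zero cells (463 squashed, 762 control) for the first 3 and mostly below them for the G2/M list, with overlap in each.

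Among the genes with at least 50 CPM in one of the groups of each library, the 12 with the largest ratios were NEAT1, MDM2, IGFL2-AS1, PURPL, GDF15, PAPPA, FN1, SYT1, MALAT1, ITGA2, BTG1 and CLDN2. Ratios also ran with transcript length. Transcripts over 5000 nt had a median of 0.43 (squashed) and 0.71 (control), and those up to 500 nt -0.15 and -0.27. NEAT1 (22743 nt), PAPPA (10971 nt) and MDM2 (7490 nt) are long, whereas PURPL (1868 nt) and GDF15 (1200 nt) are not. The part of length in these ratios was not tested. NEAT1, the scaffold RNA of nuclear paraspeckles, was at 3.40 and 3.49. Of 8 measured nuclear RNAs 7 were higher in both libraries, where 18.3% of all genes were. MEG3, 1 of the 8, reached 20 CPM through the CDKN1A-high cells alone. PURPL, a long noncoding RNA that p53 activates and that restrains it, had 57.8 CPM in CDKN1A-high and 8.72 CPM in zero cells of the squashed library and 112 and 11.2 CPM in those of the control library (2.72, 2.27 to 3.20, and 3.31, 2.98 to 3.65). PAPPA, a protease that frees insulin-like growth factor, was at 2.30 and 2.73. FN1, fibronectin, and ITGA2, a collagen receptor subunit, were at 2.07 and 2.95 and at 1.87 and 2.59. BTG1, a relative of BTG2, was at 2.16 and 2.26. Against zero cells rich in NEAT1 and MALAT1, described below, several of these were at or below 0 in the control library: FN1 was at 1.01 in the squashed and -0.0074 in the control library, BTG1 at 0.96 and -0.16 and the claudin CLDN2 at 1.58 and -0.11. NEAT1, which chose those cells, was at 2.10 and 0.46, PAPPA at 1.36 and 0.70 and ITGA2 at 1.09 and 0.13.

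The p53 response element, a pair of half-sites matched here without a mismatch and with up to 13 bases between them on either strand, occurs in 10 of 35116 listed promoters (0.0285%, RefSeq, GRCh38.p14), each taken from 250 bases before to 50 after the start. Elements with a mismatch or outside this stretch were not searched for, so a gene without a match may still have one. Genes were counted when any of their listed promoters matched, whereas the share over all is per promoter. The element was in 1 of the 10 genes of the highest 12 with a listed promoter, PURPL, and in 1 of 36 p53 targets, DDB2. They are shown because these are the members of the lists whose promoters hold the element; the capitals mark the match, 127 bases before the start in PURPL and 5 bases after it in DDB2. The PURPL window is chr5:27472142-27472291 and the DDB2 window chr11:47214974-47215003, both on the plus strand.
PURPL: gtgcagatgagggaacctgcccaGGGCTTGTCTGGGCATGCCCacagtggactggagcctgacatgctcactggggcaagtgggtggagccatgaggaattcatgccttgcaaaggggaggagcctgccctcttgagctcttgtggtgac
DDB2: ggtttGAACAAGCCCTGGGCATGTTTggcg

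Genes of mitosis lay low. Of 49 genes of the G2/M list measured in both libraries, 46 were lower in CDKN1A-high cells of both (background 9.95%) and 0 higher; CKAP5, CTCF and CBX5 were not. The list summed to 2613 CPM in CDKN1A-high and 7870 CPM in zero cells of the squashed library and to 1495 and 8299 CPM in those of the control library. Its median log2 ratio was -1.62 (-1.95 to -1.45) and -2.59 (-2.91 to -2.08). With 20 CPM asked of the CDKN1A-high cells of both libraries, so that no gene entered through the zero cells alone, 21 of 24 were lower and 0 higher, against 6.43% of 3950 genes lower, with medians of -1.45 and -2.20. The 12 lowest genes were NUF2, CCNB1, CDC20, PLK1, AURKA, HMMR, PTTG1, CDCA8, PRR11, BIRC5, CCNB2 and DEPDC1. CCNB1, cyclin B1, had 76.0 CPM in CDKN1A-high and 467 CPM in zero cells of the squashed library and 38.1 and 552 CPM in those of the control library (-2.61, -2.88 to -2.37, and -3.84, -4.27 to -3.47). PLK1, a mitotic kinase, was at -2.08 and -3.99, and CDC20, which activates the anaphase-promoting complex, at -2.53 and -3.86. Of 22 measured genes of the G1/S list 15 were lower in both and 0 higher (3 of 7 and 0 with 20 CPM asked of the CDKN1A-high cells), among them RRM2, a subunit of ribonucleotide reductase, at -1.53 and -2.34. Of 9 measured cyclins and their partners, 4 were lower in both and CDK6 was the 1 that was higher. Of the other CDK inhibitors listed, CDKN3 alone was measured and was lower, at -1.48 and -3.17; it is a phosphatase that acts on CDK2.

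Of the 12 lowest genes 10 have a listed promoter. The letters TTTGAA, the core of the cell cycle homology region, stood on either strand within 50 bases before to 20 after the start in 6 of these 10, in 20 of 46 listed G2/M genes (43.5%) and in 3.32% of all 35116 promoters. Over the whole window they stood in 8 of 10, in 33 of 46 (71.7%) and in 15.2%. Genes were counted when any of their listed promoters matched, whereas the shares over all are per promoter. A gene with several promoters had more chances to match, so the shares are not strictly alike. The last 60 bases before the start of the 6 are shown to place the motif, which the capitals mark; in HMMR it occurs as a tandem pair, and in DEPDC1 on the opposite strand. The windows are chr16:23678829-23678888 (PLK1), chr5:163460572-163460631 (HMMR), chr1:37692456-37692515 (CDCA8), chr17:59155686-59155745 (PRR11), chr15:59105086-59105145 (CCNB2), all on the plus strand, and chr1:68497083-68497142 on the minus strand (DEPDC1). A match is a description of letters and not a shown site.
PLK1: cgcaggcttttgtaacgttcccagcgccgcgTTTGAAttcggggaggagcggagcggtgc
HMMR: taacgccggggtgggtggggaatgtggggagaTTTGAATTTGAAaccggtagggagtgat
CDCA8: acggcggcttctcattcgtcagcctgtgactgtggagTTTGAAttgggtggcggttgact
PRR11: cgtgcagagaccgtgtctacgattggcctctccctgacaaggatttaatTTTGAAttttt
CCNB2: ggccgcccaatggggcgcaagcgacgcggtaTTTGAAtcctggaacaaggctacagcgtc
DEPDC1: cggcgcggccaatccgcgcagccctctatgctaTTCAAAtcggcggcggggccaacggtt

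Phase calls from the G1/S and G2/M lists, made at 2000 UMIs, read the same genes and add no independent evidence. They put 15 of 89 squashed CDKN1A-high cells (16.9%, 9.75 to 26.3) in G2/M against 303 of 463 squashed zero cells (65.4%, 60.9 to 69.8). In the control library they put 3 of 62 (4.84%, 1.01 to 13.5) against 556 of 762 (73.0%, 69.7 to 76.1) there. G1 took 76.4% and 90.3% of CDKN1A-high cells against 27.0% and 24.1% of zero cells. MDM2 stood apart among G1 and G2/M calls, and in S-phase calls in the control library. Among G1 calls MDM2 was at 256 CPM in CDKN1A-high and 37.1 CPM in zero cells of the squashed library and at 269 and 34.8 CPM in those of the control library. Among G2/M calls it was at 238 CPM in 15 CDKN1A-high cells and 27.9 CPM in 303 zero cells of the squashed library and at 152 CPM in 3 CDKN1A-high cells and 26.5 CPM in 556 zero cells of the control library. GDF15 among G2/M calls was at 63.8 CPM in CDKN1A-high and 5.27 CPM in zero cells of the squashed library and at 71.1 CPM (28.6 to 147) and 8.83 CPM in those of the control library. The 6 squashed cells called S had 49.9 MDM2 CPM (13.6 to 128) against 23.8 CPM (13.6 to 38.7) in zero cells, and 37.5 GDF15 CPM against 32.8 CPM, with intervals that overlap. The 3 control cells called S had 208 MDM2 CPM (121 to 333) against 14.7 CPM (5.92 to 30.4) in zero cells.

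With G1-called cells on both sides the p53 list had a median of 1.33 and 1.44, against 0.59 and 0.42 for all measured genes. The G2/M list then had a median of 0.49 and -0.19, below that of all genes in both libraries, and CCNB1 was at 0.64 in the squashed library.

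MDM2 rose with CDKN1A in every bin of all cells of at least 10000 UMIs, including those that are neither CDKN1A-high nor zero. Over bins of 0, above 0 to under 1, 1 to 2, 2 to 3, 3 to 5 and 5 or more CDKN1A UMIs per 10000, MDM2 stood at 29.7, 49.1, 89.6, 150, 196 and 352 CPM in the squashed library. The same bins of the control library gave 28.1, 50.5, 135, 166, 245 and 274 CPM. PURPL ran through 8.72, 20.3, 24.5, 36.4, 52.6 and 69.7 CPM in squashed cells and 11.2, 24.2, 51.9, 71.3, 120 and 100 CPM in control cells. GDF15 was less graded, at 10.2, 25.4, 28.9, 70.7, 70.7 and 74.4 CPM in squashed cells. In control cells it was at 13.6, 30.2, 70.0, 59.1, 84.0 and 85.9 CPM. The G2/M list ran the other way, to 1367 CPM in the highest squashed bin and 1036 CPM in the highest control bin. In the control library it rose once, from 1506 CPM in the bin of 2 to 3 to 1793 CPM in that of 3 to 5. The highest bins held 28 squashed and 19 control cells. NEAT1 climbed alongside, and the mitochondrial share was higher in every bin with CDKN1A than in the bin without it.

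**Figure D3:**
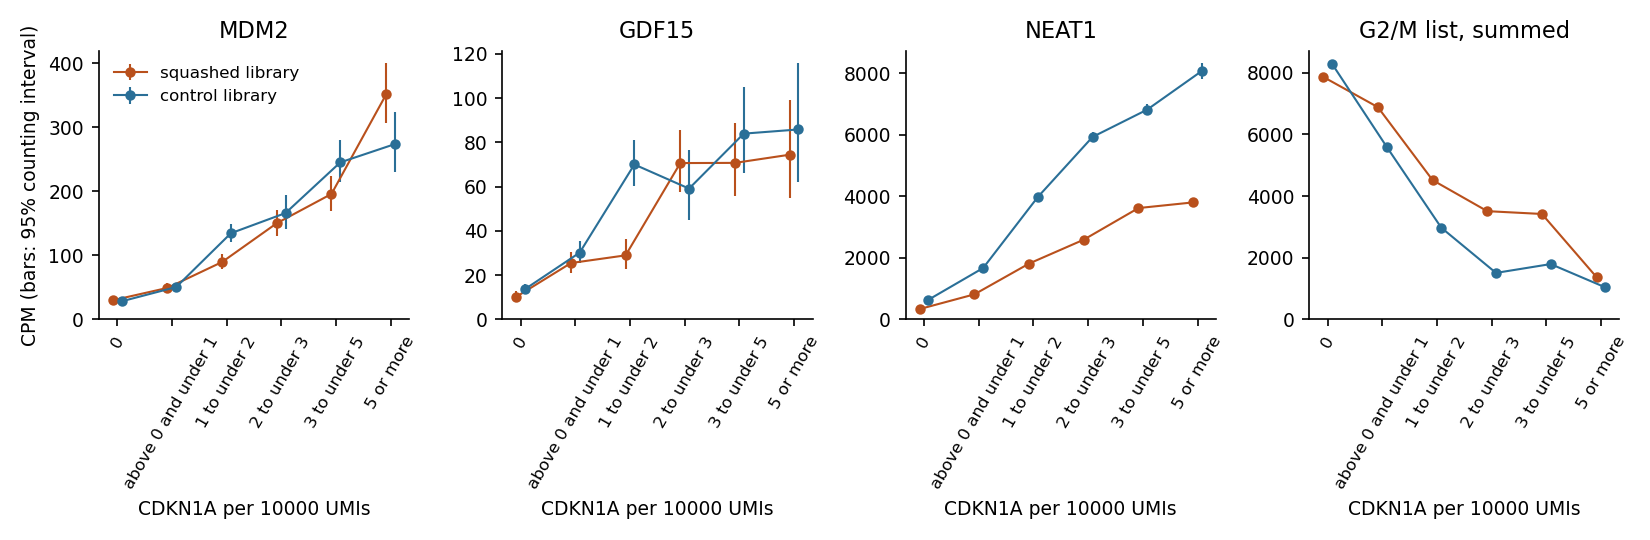
CPM of MDM2, GDF15, NEAT1 and the summed G2/M list (bars, 95% counting intervals) are plotted for cells of at least 10000 UMIs in 6 bins of CDKN1A per 10000 UMIs. MDM2 climbs to 352 CPM in squashed and 274 CPM in control cells while the G2/M list drops to 1367 and 1036 CPM.

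Because NEAT1 and MALAT1 moved so strongly with CDKN1A, the cells were also set against zero cells whose share of these RNAs was at or above the lower quartile of CDKN1A-high cells. These numbered 127 in the squashed and 61 in the control library. Their median NEAT1 and MALAT1 share was 1.13% and 3.18%, and their median mitochondrial share 11.4% and 14.2%. In this comparison, chosen after the data had been seen, 58 of 4343 measured genes were higher in CDKN1A-high cells of both libraries (1.34%) and 26 lower (0.599%), so most of the 802 and 435 differences were not at 1.5-fold against these cells; 53 and 13 were shared. Of the 28 p53 targets measured 19 were among these 58 genes. Measured again meant 20 CPM in either group of cells, and the minimum was not asked of these zero cells. Targets that reached it through the CDKN1A-high cells alone could not come out lower, so the count of 19 leans to higher. MDM2 was at 2.53 and 1.89, TP53INP1 at 4.14 and 1.58, BTG2 at 2.29 and 1.40, ZMAT3 at 2.48 and 0.94, FDXR at 1.55 and 1.51, PURPL at 2.22 and 1.09 and GDF15 at 1.75 and 0.77. FAS, PMAIP1, PERP, PLK2, CCNG1, TRIAP1, CMBL, PCNA and SAT1 were the targets not among them.

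The rest of the 58 lay outside the list. ACTA2, smooth muscle actin, was at 1.48 and 3.25, and TRIML2 at 1.32 and 3.08. Of the other groups, 0 of 11 immediate early genes, 0 of 10 interferon genes and 0 of 11 genes of the BCL2 family were higher in both libraries against these cells, where 1.34% of all genes were, so counts of 0 are near the background and say nothing particular to these groups. Against all zero cells, where 18.3% of all genes were higher, they had 8 of 12, 7 of 10 and 5 of 11 higher. FOSB, EGR1, FOS, NR4A1, IRF9 and BIRC3 were under 20 CPM in zero cells of both libraries. They were measured through the CDKN1A-high cells alone and could not come out lower, so these counts lean to higher. The minimum was not asked of the zero cells for these lists. FOSB and EGR1, transcription factors of the immediate early response, stood at 2.46 and 2.30 and at 2.60 and 2.07 against all zero cells. Against the zero cells rich in NEAT1 and MALAT1 FOSB stood at 1.06 in the squashed and -0.59 in the control library, and EGR1 at 1.27 and -0.45. The 27 measured G2/M genes had a median of -1.73 in the squashed and 0.16 in the control library against these cells. Phase calls put 60.6% of the squashed cells rich in these RNAs in G2/M but 3.28% of the control ones.

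**Figure D4:**
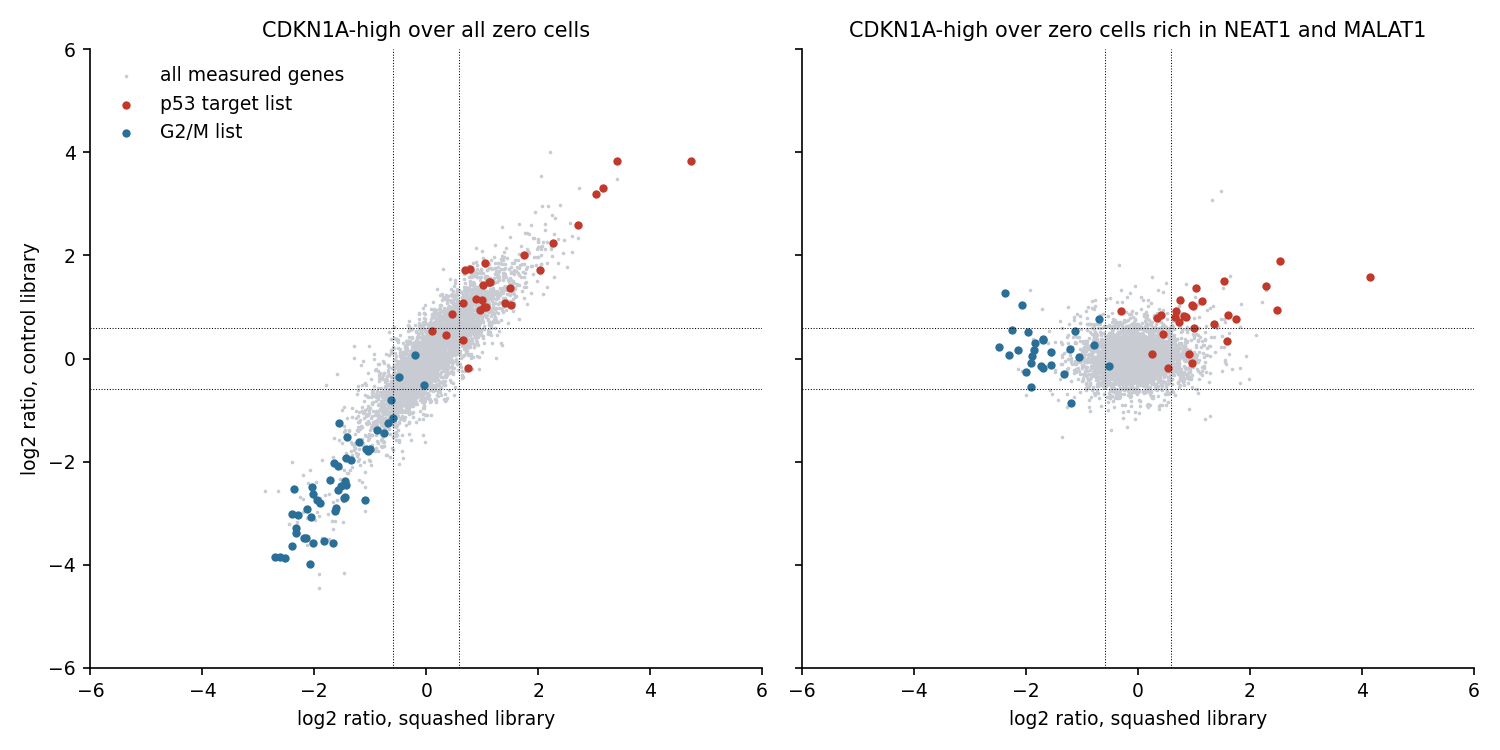
Each point is a measured gene, with its log2 ratio of CDKN1A-high over zero cells in the squashed library on the horizontal and in the control library on the vertical axis, against all zero cells (left) and against zero cells rich in NEAT1 and MALAT1 (right); dotted lines mark 1.5-fold. On the left 802 genes lie in the upper right and 435 in the lower left corner, and on the right 58 and 26, of which 19 of the 58 are on the p53 list.

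Genes of chromosome 5 were low in CDKN1A-high cells, and also in other cells like them. Over 5748 genes, without the cell cycle lists, the median ratio of the genes of each of 23 chromosomes was taken relative to that of all of them. Chromosome 5 was the lowest in both libraries, at -0.33 (-0.42 to -0.17, 268 genes) in the squashed and -0.27 (-0.37 to -0.15) in the control library. Chromosome 15 was the highest in both, at 0.15 (0.04 to 0.21) and 0.29 (0.15 to 0.40). The 223 measured genes of the long arm of chromosome 5 were at -0.37 (-0.48 to -0.26) and -0.28 (-0.43 to -0.19), and the 45 of the short arm at -0.05 (-0.32 to 0.14) and 0.03 (-0.42 to 0.25).

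In single cells thinned to 10000 UMIs, the share of UMIs on chromosome 5 was divided by the median of the zero cells of the library. This value, called dose here, had a median of 0.75 in CDKN1A-high cells of both libraries. It was under 0.75 in 33 of 69 squashed CDKN1A-high cells (47.8%, 35.6 to 60.2) against 56 of 463 squashed zero cells (12.1%, 9.27 to 15.4), and in 28 of 56 control CDKN1A-high cells (50%, 36.3 to 63.7) against 82 of 762 control zero cells (10.8%, 8.65 to 13.2). Among G1 calls it was under 0.75 in 48.1% against 14.4% of squashed cells and in 50% against 27.7% of control cells. The zero cells rich in NEAT1 and MALAT1 had it under 0.75 in 38.6% of the squashed (30.1 to 47.6) and 50.8% of the control cells (37.7 to 63.9), and cells with a CDKN1A UMI that were not CDKN1A-high in 37.2% of the squashed (32.3 to 42.3) and 33.3% of the control cells (28.6 to 38.4). A low dose was thus not particular to CDKN1A-high cells. Against the zero cells rich in NEAT1 and MALAT1 the chromosome 5 median was -0.15 (-0.24 to -0.08) in the squashed and 0.07 (0.00 to 0.12) in the control library. With G1-called cells on both sides it was -0.18 (-0.29 to -0.02) and -0.03 (-0.09 to 0.05), no longer the lowest chromosome in either library. Dose is a share of RNA, and a change of copy number and a change of expression along the chromosome cannot be told apart in these files.

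**Figure D5:**
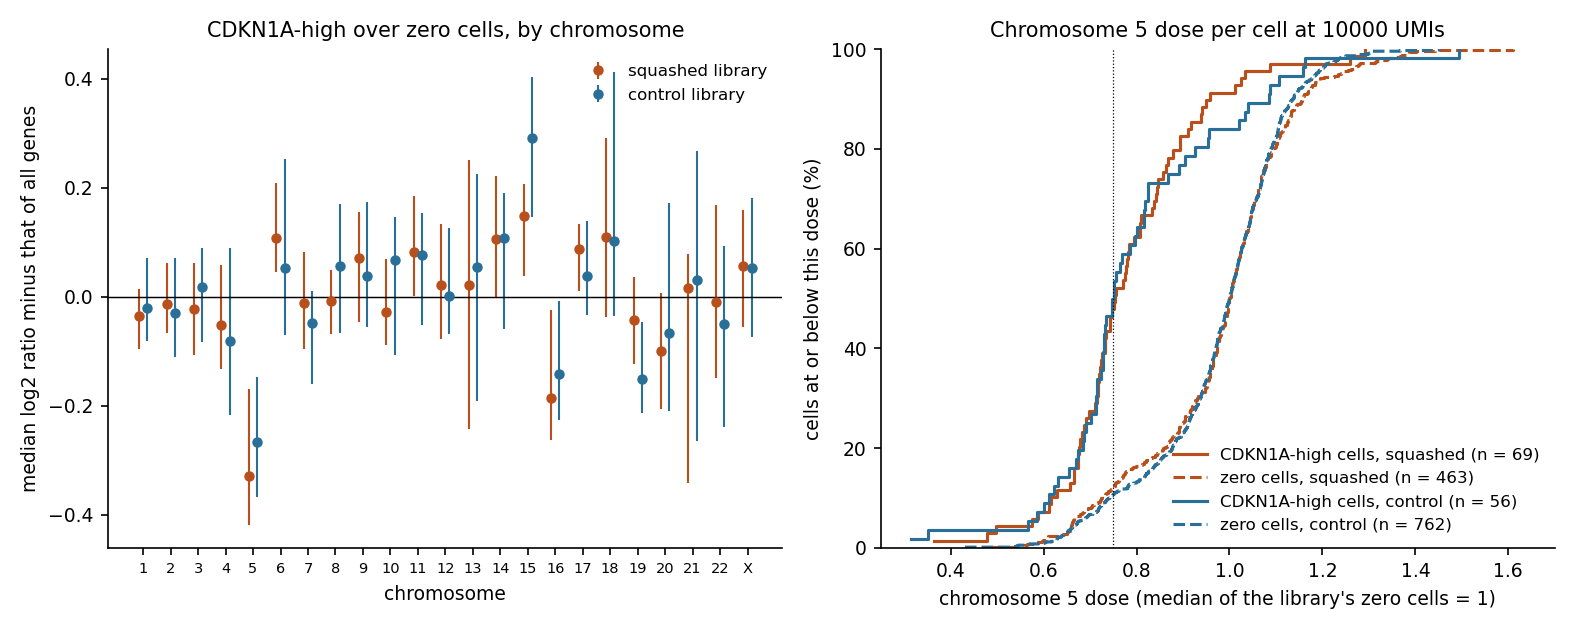
Left, the median log2 ratio of CDKN1A-high over zero cells for the genes of each chromosome, minus that of all genes, with 95% intervals over genes; chromosome 5 is lowest in both libraries, at -0.33 and -0.27. Right, the share of cells at or below each chromosome 5 dose at 10000 UMIs; the curves of CDKN1A-high cells lie left of those of zero cells, with medians of 0.75 against 1.

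CDKN1A-high cells of the squashed library were then set against those of the control library. Of 5145 measured genes 460 were higher in the squashed cells (8.94%) and 1197 lower (23.3%), with a median of -0.14. Zero cells of the same libraries gave 160 of 4290 higher (3.73%) and 479 lower (11.2%), with a median of -0.09. TMM scaling moved these ratios by 0.21 and gave 839 higher and 627 lower. Transcripts over 5000 nt had a median of -0.33 in CDKN1A-high cells and -0.05 in zero cells, and those up to 500 nt 0.70 and 0.53. Of 3961 genes measured in both kinds of cell, 387 were higher and 679 lower in squashed CDKN1A-high cells. The zero cells shared 114 of these 387 (29.5%) and 314 of these 679 (46.2%), which are 74.0% and 75.3% of their own calls.

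The p53 targets differed between the libraries about as often as all genes. CDKN1A stood at 550 CPM in squashed and 502 CPM in control CDKN1A-high cells (0.13, -0.01 to 0.27), a value the choice of cells sets. MDM2 was at -0.08 (-0.28 to 0.12) and GDF15 at -0.30 (-0.67 to 0.08), and both intervals include no difference. Of 31 measured p53 targets 1 was higher, 7 were lower and 23 within 1.5-fold, where 8.94% of all genes were higher and 23.3% lower, with a median of -0.24 (-0.40 to 0.00). FDXR was at -1.18 (-1.48 to -0.89), with -0.91 in zero cells, and RRM2B at -0.82 (-1.29 to -0.37), with -0.02 in zero cells.

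Mitotic genes were higher in squashed than in control CDKN1A-high cells, more so in those near the limit. In cells of at least 10000 UMIs the G2/M list summed to 3420 CPM in squashed and 1793 CPM in control cells with 3 to under 5 CDKN1A UMIs per 10000, and to 1367 and 1036 CPM in those with 5 or more. With at least 5 CDKN1A UMIs and 5 per 10000 required, the median over zero cells was -3.05 in the squashed and -3.13 in the control library. Of 34 measured G2/M genes 22 were higher in squashed than in control CDKN1A-high cells and 0 lower, with a median of 0.93 (0.46 to 1.06). Over all genes 8.94% were higher and 23.3% lower. Genes that reached 20 CPM in the squashed cells alone could not come out lower, so this count and median lean to higher. CDC20, at 24.2 CPM in squashed and 12.5 CPM in control cells, was 1 of them. In zero cells 2 of 50 G2/M genes were higher and 4 lower, with a median of -0.10. CCNB1 was at 0.99 (0.53 to 1.47), AURKA at 1.06 (0.50 to 1.68), TPX2, a spindle assembly factor, at 1.37 (0.83 to 1.97) and the phosphatase CDKN3 at 1.31 (0.85 to 1.80). The control values rest on few cells. Of 55 control CCNB1 UMIs 25 came from 1 of 15 cells with any, and of 18 control CDK1 UMIs 13 came from 1 of 4 cells. The G2/M calls above, 15 of 89 squashed and 3 of 62 control cells, move with these genes.

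The genes highest in squashed over control CDKN1A-high cells, relative to their ratio in zero cells, were TPX2, CDKN3, BOLA3, NUSAP1, PPME1, AURKA, TUBB4B and CCNB1. BOLA3 was at 1.27 in CDKN1A-high and 0.00 in zero cells, and PPME1 at 0.95 and -0.30. The genes lowest by the same measure were NTS, STC1, SLC7A2, LENG8, VAMP2, PDZD8, IGFL2-AS1 and MT1X. All 103 control UMIs of NTS, the peptide neurotensin, came from 1 cell, which also held all 38 UMIs of the fibroblast marker DCN and 34 of the 121 of STC1; squashed CDKN1A-high cells held no NTS UMI. SLC7A2, a transporter of basic amino acids, had 21.5 CPM in squashed and 96.4 CPM in control cells (-2.15, -2.72 to -1.64; -0.90 in zero cells). MT1X, a metallothionein, had 141 CPM in squashed and 78.3 CPM in control CDKN1A-high cells (0.84), whereas it was at 2.13 in zero cells, since within the squashed library it was lower in CDKN1A-high than in zero cells (-1.28, -1.48 to -1.10) and within the control library it was not (0.00, -0.30 to 0.28). MT2A followed, at -0.86 and -0.24. Against zero cells rich in NEAT1 and MALAT1, MT1X was lower in CDKN1A-high cells of both libraries, at -1.35 (squashed) and -1.53 (control). The difference between the libraries in MT1X thus depends on the comparison cells.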

How the data were processed

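Deposited matrices of 2 10x Genomics libraries of A549 cells (kit 3.1), 1 squashed and 1 control, were used, and both carry 1 batch label. The values are whole-number UMI counts per gene and barcode, deposited by the authors without normalization. Reads were aligned to GRCh38 with Cell Ranger 5.0.1 per the series' design text, whereas the file headers name version 4.0.0. Per the submitters' processing notes R 4.3.2 was used, for an unnamed step.

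Kept barcodes had 1000 or more UMIs, 500 or more genes and no more than 20% of UMIs from mitochondrial genes. Counts were summed over the cells of a group and divided by their total to give CPM. Log2 ratios used a prior of 0.5 counts; 95% intervals are exact (Poisson for CPM, Clopper-Pearson for shares and ratios, order statistics for medians over genes), cover counting error only and say nothing of the spread between cultures. Ratios were called at 1.5-fold without a test. Free RNA was not removed. Doublets were called with Scrublet in scanpy 1.11.5 and kept. Phase calls used cells thinned to 2000 UMIs. TMM factors came from edgeR 4.0.16. Other steps used Python 3.11.15, numpy 2.4.6, scipy 1.17.1 and pandas 2.3.3. Gene positions came from GENCODE 44 (36366 of 36601 genes matched), and promoters from RefSeq. The calculation was tested on simulated data.

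Named genes were the 12 highest and 12 lowest by the mean of both libraries' ratios among genes of at least 50 CPM in each, up to 4 genes of each list, MDM2 and GDF15, and the 8 highest and 8 lowest in squashed over control cells relative to zero cells. SFN, BAX, XPC, DDB2, RPS27L, PCNA, CDK6, TRIML2 and ACTA2 were named after their values were seen. The members and lists were chosen with earlier results of these data known. Alternatives varied the cell filter, CDKN1A threshold, depth, scaling, phase, low-value filter and comparison cells. Results on some items are not reported here.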

Additional observations from a re-analysis of the deposited data

Results flagged for a closer look

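Barcodes removed by the cell filter also held cells that pass the CDKN1A limits. They were 16 of 1202 removed squashed barcodes (1.33%, 0.763 to 2.15) and 4 of 668 removed control barcodes (0.599%). These 16 and 4 barcodes were picked by the same CDKN1A limits, and no comparison cells were set for them. The control interval, 0.163 to 1.53, overlaps the squashed one. Both intervals cover counting error only, and a difference between the libraries was not tested. In these barcodes MDM2 had 500.2 CPM (63 UMIs, squashed) and 576 CPM (28 UMIs, control). All 16 and 4 had over 20% mitochondrial UMIs, and the part of that share in the result was not tested. The 519 squashed and 270 control barcodes removed for that share only, which include them, had 143 and 116 MDM2 CPM.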

How the results depend on the processing

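No paired analysis was possible because each condition has 1 library. Over the alternatives, MDM2 in CDKN1A-high over zero cells stayed between 2.53 and 3.55 in the squashed and between 1.89 and 3.70 in the control library, and the p53 list between 0.79 and 1.45 and between 0.84 and 1.72. The share of CDKN1A-high cells was 7.62% and 4.71% among cells of at least 10000 UMIs, 11.5% and 6.39% thinned to 10000, 0.786% and 0.384% thinned to 2000, 1.76% and 1.15% at 5 CDKN1A UMIs and 5 per 10000, 3.56% and 1.14% under a stricter cell filter, and 3.77% in the squashed library with no filter beyond 1000 UMIs. Of genes in CDKN1A-high over zero cells in both libraries, TMM scaling gave 410 higher and 916 lower, a minimum of 50 CPM 291 and 265, no minimum 4310 and 678, G1 cells alone 23 lower, zero cells rich in NEAT1 and MALAT1 58 and 26, zero cells rich in genes 431 higher, the minimum asked of zero cells 369 higher, and that asked of CDKN1A-high cells 254 lower; the last 4 settings were chosen after seeing the data. Squashed over control CDKN1A-high cells gave 839 higher and 627 lower with TMM, 247 and 458 at 50 CPM, 1637 and 3879 with no minimum, 812 higher at 5 CDKN1A UMIs, and 715 higher with totals that leave out mitochondrial and ribosomal genes. The p53 median was 0.79 and 0.90 with TMM, and 0.84 in the control library against zero cells rich in NEAT1 and MALAT1. The G2/M median was -1.34 (squashed) with zero cells of any depth, -3.05 and -3.13 at 5 CDKN1A UMIs, and -0.43 (squashed) among G2/M calls, where the control library has 3 cells and gives no value. In the control library it was -2.94 with TMM, -2.92 as a mean of cells' CPM, -2.03 under the stricter cell filter and 0.16 against zero cells rich in NEAT1 and MALAT1. Among G1 calls it was 0.49 and -0.19.

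Values of single genes that changed sign follow; the cause was not tested. Among G1 calls of the squashed library these were CCNB1 0.64, CDC20 0.25, PLK1 1.29, AURKA 0.92, HMMR 0.22, PTTG1 0.024, CDCA8 0.80, CCNB2 0.36, CDKN3 0.20, RPA2 0.028, RAD51AP1 0.18, IGFBP7 -0.022 and MT1X 0.11, and of the control library CCNA2 0.66 and IGFBP7 -0.16. Among squashed G2/M calls they were CDK1 1.11, GINS2 0.51 and RAD51AP1 0.18. At 5 CDKN1A UMIs HLA-B was -0.22 in the squashed library. Against zero cells rich in NEAT1 and MALAT1, in the control library, they were FN1 -0.0074, BTG1 -0.16, CLDN2 -0.11, NUF2 0.57, CCNB1 0.21, CDC20 0.77, AURKA 0.071, HMMR 0.56, PTTG1 0.37, CDCA8 1.23, BIRC5 1.05, CDKN3 0.069, CCNA2 2.46, CDK1 0.21, GINS2 0.18, RRM2 1.503, RAD51AP1 0.87, IGFBP7 -0.20, PLAUR -0.39, FOSB -0.59, EGR1 -0.45, FOS -0.23, NR4A1 -0.54, AKR1C1 -0.33, CYCS 0.48, XIAP -0.23, ISG15 -0.55, HLA-E -0.024 and HLA-B -0.20. Over all alternatives 1206 values of named genes kept their sign and moved little, 571 kept it and moved further, and 48 changed sign.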

Other observations

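Of 10 measured interferon and antigen presentation genes 7 were higher in CDKN1A-high than in zero cells of both libraries, where 18.3% of all measured genes were. Genes that reached 20 CPM through the CDKN1A-high cells alone, IRF9 among them, could not come out lower, so this count leans to higher. IRF9, a subunit of the interferon signalling factor, was at a log2 ratio of 1.88 in the squashed and 1.79 in the control library, and ISG15, a ubiquitin-like protein, at 1.51 and 1.52. Of 22 measured NRF2 targets 4 were higher in both, near the share over all genes, among them the aldehyde dehydrogenase ALDH3A1 at 1.20 and 1.56 and the aldo-keto reductase AKR1C1 at 1.38 and 1.39. Of 10 measured secreted factors of senescence 2 were higher in both, again near the share over all genes, the protease inhibitor SERPINE2 at 1.01 and 1.96 and the growth factor binding protein IGFBP7 at 0.76 and 1.01. Of these, ALDH3A1 and SERPINE2 were at least 1.5-fold higher in both libraries also against zero cells rich in NEAT1 and MALAT1.

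The remaining lists are to be read against 18.3% of all genes higher and 9.95% lower in both libraries. Of 12 glycolysis genes 0 were higher or lower, of 30 proteasome genes 1 was lower, and of 25 actomyosin genes 1 was higher and 1 lower. Of 15 ATF4 targets 3 were higher and 3 lower, of 14 heat shock genes 2 and 3, of 17 DNA repair genes 3 and 4, of 10 nuclear envelope genes 0 and 3. Of 11 unfolded protein response genes 1 was higher, of 11 genes of TGF-beta and YAP signalling 4, of 11 epithelial genes 4, of 12 genes of epithelial-mesenchymal transition 2 and of 4 hypoxia genes 2, with 0 lower in each of these 5 lists. The squashed library alone had 9 of 11 epithelial genes and 8 of 12 genes of TGF-beta and YAP signalling higher, against 22.9% of all genes, and the control library 4 of 12 and 6 of 12, against 32.5%.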
